A study of Mus musculus with 23 samples.

Results

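The cytochrome P450 genes described here are Cyp2a4, Cyp2a5, Cyp2a12, Cyp2a22, Cyp2e1, Cyp2f2, Cyp2g1, Cyp2j5, Cyp2j6 and Cyp2u1, which belong to small subfamilies of the mouse Cyp2 family. They are 10 of 21056 genes tested, and were found by matching the gene name that the array files give to each probe. The array held 15 probes for them, and all 15 were well above background on all 23 arrays with no saturated spot. Cyp2u1 had 3 probes, Cyp2e1, Cyp2j5 and Cyp2j6 had 2 each, and the other genes had 1 each.

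Liver RNA of male C57BL/6J mice was hybridised to 1-colour Agilent arrays, 1 array per mouse. Wild-type (WT) mice and Pxr-/- mice, in which the receptor PXR, the product of Nr1i2, is missing, were injected with corn oil (CONT) or with the PXR ligand pregnenolone 16α-carbonitrile (PCN) in corn oil, 100 mg/kg by daily intraperitoneal injection over 4 days. Mice were killed 6 h after the last injection, at zeitgeber time 6, in a state that the labels call fed and the study's text semi-fasted. There were 6 arrays of WT CONT and 5 of WT PCN mice, and 6 each of Pxr-/- CONT and Pxr-/- PCN mice, although the labels describe 6 mice for each. WT mice were bought at 6 weeks of age and kept for 2 weeks before use, whereas Pxr-/- mice, backcrossed to C57BL/6J, came from a colony kept in the facility, so genotype and colony cannot be told apart. The receptor was missing in the whole animal, not in hepatocytes alone. Arrays were washed in 2 batches. Batch 1 held 3 arrays of each group, and batch 2 held 3 of each group except WT PCN, which had 2.

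Cytochrome P450 enzymes of this family are haem proteins of the endoplasmic reticulum that insert an oxygen atom into drugs, steroids or fatty acids, with electrons supplied by the reductase Por. Many hepatic Cyp2 genes are controlled by ligand-activated nuclear receptors, and PXR is the receptor best known for switching on drug-metabolising enzymes. Cyp2a5 oxidises coumarin and nicotine, and Cyp2a4, its close relative, hydroxylates testosterone. Cyp2e1 oxidises ethanol and acetaminophen and is a marker of hepatocytes around the central vein. Cyp2f2 activates naphthalene, Cyp2g1 is best known from the olfactory mucosa, Cyp2j5 and Cyp2j6 form epoxides of arachidonic acid, and Cyp2u1 hydroxylates long-chain fatty acids.

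The probes set what each value means, so those on which the results turn are shown first, by the opening 30 of their 60 bases in lower case. The probe named Cyp2a4 lists transcripts of Cyp2a4 and of Cyp2a5, so it does not separate these genes, whereas the Cyp2a5 and Cyp2g1 probes list transcripts of a single gene. Probe positions follow build mm9, as the scanner files state them. No gene model of that build was used here, so exons were not assigned.
Cyp2a4 probe A_55_P2007326 (chr7:27099880-27099939, plus strand): actatgagtttcttgtcccgttgatcctgg
Cyp2a5 probe A_52_P246252 (chr7:27628169-27628228, plus strand): aggacacagagtagacttgcagaggatatt
Cyp2g1 probe A_51_P137452 (chr7:27606111-27606170, plus strand): gtcagcttacataatctttgtctttgccct

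The 3 Cyp2u1 probes on chromosome 3 list different sets of transcripts. Probe A_52_P421698 lists the RefSeq transcript and both Ensembl transcripts named for the gene on the array. Probe A_66_P101879 lists 1 of these Ensembl transcripts and no RefSeq transcript, and its 60 bases span 392 bases of the genome. Probe A_55_P1966734 lists the other Ensembl transcript and no RefSeq transcript, and 32 of its 60 bases are an unbroken run of GT repeats. Capitals mark the part of this run within bases 7 to 36 of the probe, which are shown, and the others are shown by their opening 30 bases.
Cyp2u1 probe A_52_P421698 (chr3:131000768-131000827, minus strand): agcagcttcgacgaggactacctgttctac
Cyp2u1 probe A_66_P101879 (chr3:130997965-130998356, minus strand): tgtccatggtggtgccgctcgccattcctc
Cyp2u1 probe A_55_P1966734 (chr3:130996343-130996402, minus strand): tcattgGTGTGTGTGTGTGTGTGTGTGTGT

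All values below are quantile-normalized log2 signals. A change is the difference of log2 signals fitted by limma over all 23 arrays with a washing batch term, given with its standard error (SE). A probe was called at a Benjamini-Hochberg adjusted p of at most 0.05, over 32087 probes tested, with a fold change above 1.5. Levels of different probes are not comparable. Cyp3a11, the standard PXR target, was called higher after PCN in WT mice (change 3.55, adjusted p = 4.12e-10) and not in Pxr-/- mice (0.31, adjusted p = 0.431). The Nr1i2 probe differed by -0.03 between Pxr-/- CONT and WT CONT mice (adjusted p = 0.977). Whether this probe lies in the deleted part was not examined, so it does not check the genotype labels. All 8 hepatocyte markers were well above background on every array, and their summed log2 level lay between 20.35 and 20.60 on all arrays. Of these markers, Apoa1 was called higher after PCN in Pxr-/- mice (0.62, adjusted p = 9.55e-04), and Tat in Pxr-/- against WT PCN mice (0.73, 0.0436).

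After PCN in WT mice, Cyp2g1 and Cyp2a4 were called higher, the latter by a probe that also lists Cyp2a5 transcripts. The 2 Cyp2u1 probes without the GT repeat were called lower. Thus 2 of 15 probes were called higher, against 3.38% of all probes tested, and 2 of 15 lower, against 2.13%. The other 11 probes were not called, and their changes ran from -0.29 for Cyp2a12 to 0.64 for Cyp2a22. The median change of the 15 probes was -0.06, beside -0.02 over all probes tested.

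Cyp2g1 lay between 7.30 and 8.02 in WT CONT mice (median 7.54, n = 6). The WT PCN arrays read 8.28, 9.31, 9.21, 8.38 and 8.18 for replicates 1 to 5. Every WT PCN array was thus above every WT CONT array. The fitted change was 1.08 (SE 0.30, limma adjusted p = 0.0125). In bulk liver RNA, such a change cannot be told apart from a change in the number of cells that hold the transcript.

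Cyp2a4 lay between 14.94 and 16.27 in WT CONT mice (median 15.75, n = 6). The WT PCN arrays read 16.01, 17.31, 17.27, 15.99 and 16.22. Replicates 2 and 3 were above all WT CONT arrays, and the other 3 lay within the WT CONT range. The change was 0.86 (SE 0.26, limma adjusted p = 0.0180). Cyp2a5 read 16.82, 17.42, 17.48, 16.84 and 16.95 in WT PCN mice, against 16.10 to 16.98 in WT CONT mice (median 16.66). Its change of 0.48 (SE 0.16, limma adjusted p = 0.0353) passed the p threshold but stayed below the fold threshold. Cyp2a22, the next gene along the cluster, read 12.09, 13.17, 13.17, 11.99 and 12.19, against 11.64 to 12.24 in WT CONT mice (median 11.90), a change of 0.64 (SE 0.24, limma adjusted p = 0.0600).

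**Figure D1:**
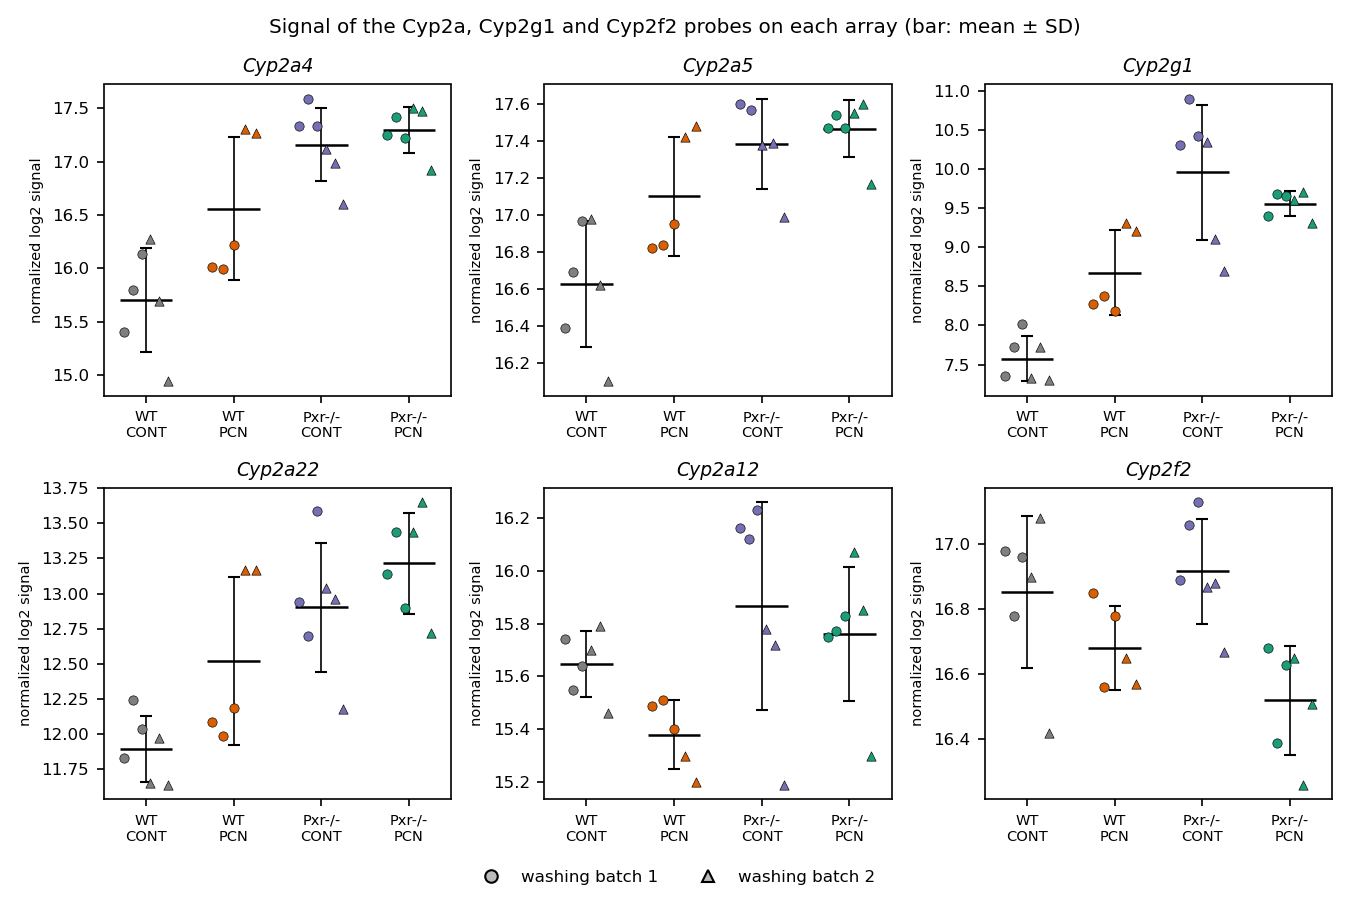
Normalized log2 signal (vertical axis) of the 6 genes of the chromosome 7 cluster on each array, by group, with circles for washing batch 1, triangles for washing batch 2, and lines for the mean ± SD. The WT PCN triangles of Cyp2a4, Cyp2a5, Cyp2g1 and Cyp2a22 lie above the WT PCN circles, as in Cyp2a4 at 17.31 and 17.27 against 15.99 to 16.22.

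The same 2 arrays, WT PCN replicates 2 and 3, were the highest of their group for all 4 of these genes, and they are the only WT PCN arrays of washing batch 2. Within batch 1 the PCN change in WT mice was 0.58 for Cyp2g1 (limma adjusted p = 0.0572), 0.29 for Cyp2a4 (0.264), 0.18 for Cyp2a5 (0.398) and 0.05 for Cyp2a22 (0.900), and no member probe was called higher. Within batch 2 it was 1.81 for Cyp2g1 (limma adjusted p = 0.0255), 1.66 for Cyp2a4 (0.0213), 0.88 for Cyp2a5 (0.0559) and 1.42 for Cyp2a22 (0.0253). The difference between the batches, in a test chosen after seeing the data, was 1.36 for Cyp2a4 (unadjusted p = 0.00151 and adjusted p = 0.209 in limma), 1.37 for Cyp2a22 (0.00171 and 0.214), 1.23 for Cyp2g1 (0.00937 and 0.318) and 0.70 for Cyp2a5 (0.0194 and 0.372). In that test 1 of 32087 probes passed the adjusted threshold and 3443 had an unadjusted p under 0.05. For PCN in Pxr-/- mice the batches differed by 1.13 for Cyp2g1 (0.0107 and 0.810 in limma), 0.51 for Cyp2a4, 0.46 for Cyp2a22 and 0.27 for Cyp2a5. For genotype in CONT mice they differed by -0.92 for Cyp2g1 (0.0328 and 0.352), -0.37 for Cyp2a4, -0.21 for Cyp2a5 and -0.07 for Cyp2a22. There 0 probes passed the adjusted threshold, and 1898 and 4122 had an unadjusted p under 0.05. Leaving out 1 array also ended calls. Without WT PCN replicate 2 the adjusted p was 0.0784 for Cyp2a4 and 0.0553 for Cyp2g1, and without WT PCN replicate 3 it was 0.0717 for Cyp2a4. Conversely, Cyp2a22 was called without WT PCN replicate 1 (adjusted p = 0.0441) or 4 (0.0352), WT CONT replicate 3 (0.0449), or Pxr-/- CONT replicate 4 (0.0392) or 6 (0.0379).

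**Figure D2:**
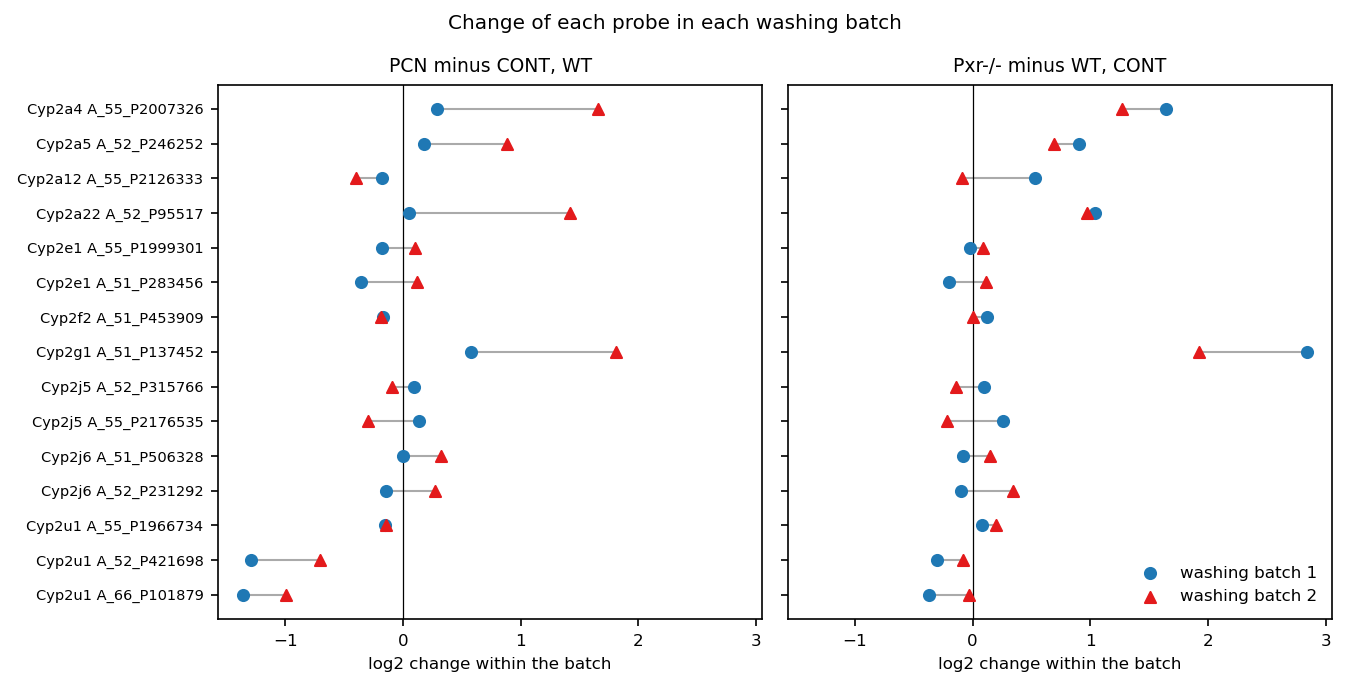
Log2 change (horizontal axis) of each of the 15 probes within washing batch 1 (circles) and washing batch 2 (triangles), for PCN in WT mice (left) and for genotype in CONT mice (right). For PCN in WT mice Cyp2a4 lies at 0.29 in batch 1 and at 1.66 in batch 2. For genotype in CONT mice Cyp2a22 lies at 1.04 and 0.97. Other genes lie further apart there, with batch 2 minus batch 1 at -0.37 for Cyp2a4, -0.62 for Cyp2a12 and -0.92 for Cyp2g1.

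Cyp2u1 was called lower after PCN in WT mice by both probes that lack the GT repeat. Probe A_66_P101879 read 6.87, 6.89, 6.81, 6.60 and 6.87 in WT PCN mice, against 7.64 to 8.22 in WT CONT mice (median 8.06). Probe A_52_P421698 read 7.72, 7.59, 7.93, 7.13 and 7.45, against 8.27 to 8.92 (median 8.57). With either probe, every WT PCN array was below every WT CONT array. The changes were -1.19 (SE 0.11, limma adjusted p = 2.98e-07) and -1.03 (SE 0.13, limma adjusted p = 1.03e-05), and both probes were called in all 23 fits that left out 1 array. Within batch 1 they were -1.36 and -1.29 and within batch 2 -0.99 and -0.70, the last with an adjusted p of 0.0555.

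The GT-repeat probe A_55_P1966734 of Cyp2u1 did not follow the others. It read 16.63, 16.57, 16.61, 16.26 and 16.58 in WT PCN mice, against 16.48 to 16.99 in WT CONT mice (median 16.62), a change of -0.14 (SE 0.10, limma adjusted p = 0.360). As the brightest of the 3 probes it stands for the gene under the rule of 1 probe per gene, so by that rule Cyp2u1 was not called.

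**Figure D3:**
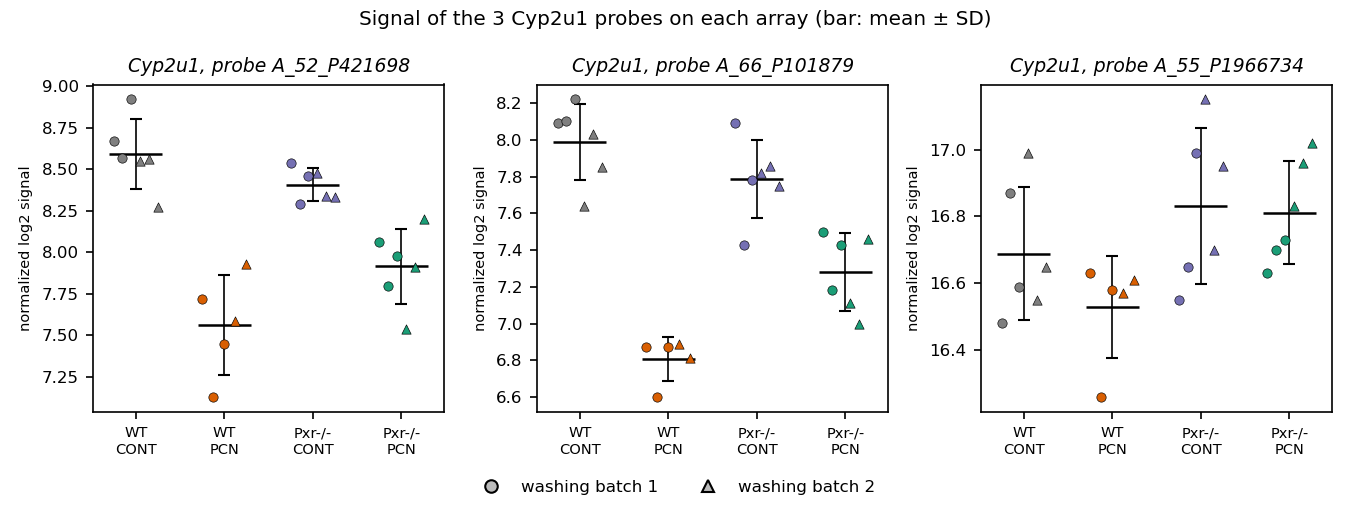
Normalized log2 signal (vertical axis) of the 3 Cyp2u1 probes on each array, by group, with circles for washing batch 1, triangles for washing batch 2, and lines for the mean ± SD. With probes A_52_P421698 and A_66_P101879 all WT PCN arrays lie below the WT CONT arrays, and with probe A_55_P1966734 the groups overlap.

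The remaining probes moved little after PCN in WT mice. The 2 Cyp2e1 probes changed by -0.06 and -0.14 (limma adjusted p = 0.524 and 0.487), the 2 Cyp2j5 probes by 0.01 and -0.06 (0.949 and 0.746), and the 2 Cyp2j6 probes by 0.15 and 0.06 (0.384 and 0.819). Cyp2f2 read 16.85, 16.65, 16.57, 16.56 and 16.78 in WT PCN mice and 16.42 to 17.08 in WT CONT mice, a change of -0.18 (SE 0.10, limma adjusted p = 0.200). Cyp2a12, which lies between Cyp2a22 and Cyp2f2, changed by -0.29 (SE 0.13, limma adjusted p = 0.130). The 95% intervals of these 8 probes reached at most 0.57 in size, at the lower end of the Cyp2a12 interval of -0.57 to -0.01.

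In Pxr-/- mice no member probe was called after PCN, in either direction, while 1.23% of all probes tested were called higher and 0.698% lower. At an unadjusted p under 0.05 in limma, 5 of 15 member probes passed, beside 21.6% of all probes tested. For 4 of them the adjusted p passed while the change stayed below the fold threshold. Cyp2f2 read 16.26 to 16.68 in Pxr-/- PCN mice (median 16.57) and 16.67 to 17.13 in Pxr-/- CONT mice (median 16.89), a change of -0.40 (SE 0.10, limma adjusted p = 0.0163). Cyp2j5 probe A_52_P315766 read 14.28 to 14.48 (median 14.40) and 13.99 to 14.28 (median 14.21), a change of 0.23 (SE 0.06, limma adjusted p = 0.0264). The second Cyp2j5 probe changed by 0.08 (adjusted p = 0.752).

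Cyp2u1 also read lower after PCN in Pxr-/- mice, below the fold threshold. Probe A_52_P421698 read 7.54 to 8.20 in Pxr-/- PCN mice (median 7.94) and 8.29 to 8.54 in Pxr-/- CONT mice (median 8.40), without overlap, a change of -0.49 (SE 0.12, limma adjusted p = 0.0193). Probe A_66_P101879 read at most 7.50 (median 7.30) in the former and at least 7.43 (median 7.80) in the latter, so that the groups overlapped, a change of -0.51 (SE 0.11, limma adjusted p = 0.00739). It was called when Pxr-/- CONT replicate 2 was left out (-0.60, adjusted p = 0.00197). For Cyp2g1, Cyp2a4, Cyp2a5 and Cyp2a22 the changes in Pxr-/- mice were -0.40, 0.14, 0.08 and 0.31, with limma adjusted p between 0.449 and 0.822.

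The PCN effects of the genotypes differed, by the test of the difference itself, for Cyp2u1 probe A_66_P101879 alone. Its effect in WT mice was lower than that in Pxr-/- mice by -0.68 (SE 0.16, limma adjusted p = 0.0266). Thus 1 of 15 probes was called lower, against 0.206% of all probes tested, and 0 of 15 higher, against 0.676%. At an unadjusted p under 0.05 in limma, 1 was higher and 3 were lower, beside 14.3% of all probes tested in either direction. The difference was -0.96 within batch 1 (adjusted p = 0.0970) and -0.37 within batch 2 (0.444), and it was not called without WT PCN replicate 4 (0.0558), WT CONT replicate 5 (0.0565) or Pxr-/- PCN replicate 6 (0.0511), nor with the deposited values (-0.64, 0.0546). Probe A_52_P421698 differed by -0.54 (SE 0.18, limma adjusted p = 0.143). For Cyp2g1 the difference was 1.48 (SE 0.41, limma adjusted p = 0.0810), for Cyp2a4 0.73 (SE 0.35, limma adjusted p = 0.355). For neither gene did the test of the difference pass, and for Cyp2a5 the difference was 0.39 (95% interval -0.08 to 0.86, limma adjusted p = 0.448). Cyp2g1 was called within batch 1 (1.55, adjusted p = 0.0274) and without Pxr-/- CONT replicate 6 (1.74, adjusted p = 0.0135).

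**Figure D4:**
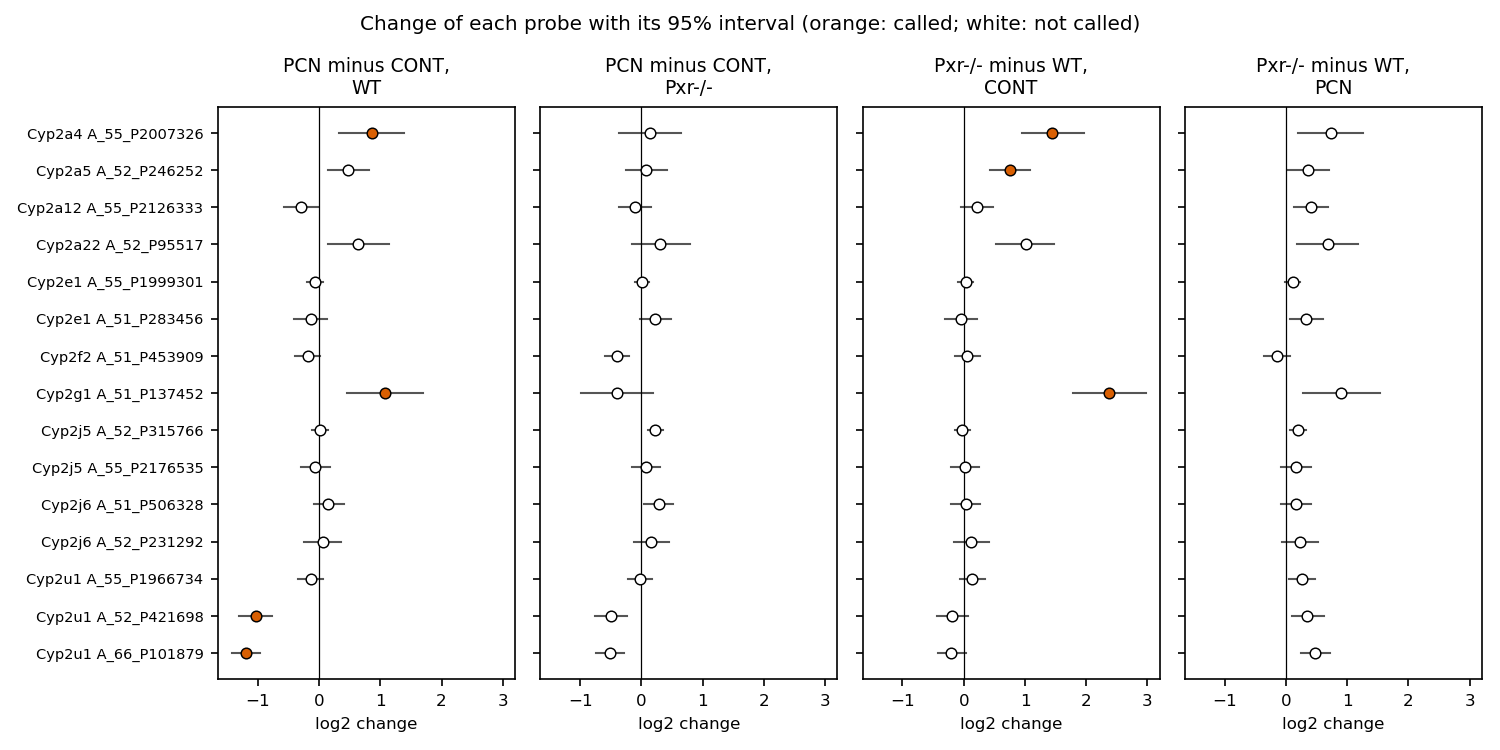
Log2 change (horizontal axis) of the 15 probes with 95% intervals in the 4 comparisons of treatment and genotype, with called probes in orange. Cyp2g1, Cyp2a4 and Cyp2a5 are called in Pxr-/- minus WT CONT mice at 2.38, 1.45 and 0.76, and no probe is called for PCN in Pxr-/- mice or for genotype in PCN mice.

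The widest differences among these genes lay between the genotypes without PCN. In CONT mice, Cyp2g1, Cyp2a4 and Cyp2a5 were called higher in Pxr-/- than in WT mice, 3 of 15 probes, against 0.209% of all probes tested. The Cyp2a4 probe also lists Cyp2a5 transcripts, so a difference of Cyp2a4 itself is not shown. No member probe was called lower, against 0.0623%. With an unadjusted p under 0.05 in limma, 4 of 15 were higher and 0 lower, beside 11.3% of all probes tested in either direction. Genotype cannot be told apart from colony here.

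Cyp2g1 read 8.69 to 10.90 in Pxr-/- CONT mice (median 10.33) and 7.30 to 8.02 in WT CONT mice (median 7.54), with no overlap. The difference of 2.38 (SE 0.29, limma adjusted p = 1.01e-04) is 5.21-fold, and it was 2.84 within batch 1 and 1.92 within batch 2. Cyp2a4 read 16.60 to 17.59 (median 17.22) and 14.94 to 16.27 (median 15.75), again with no overlap. Its difference was 1.45 (SE 0.24, limma adjusted p = 0.00456), 1.64 within batch 1 and 1.27 within batch 2, the latter with an adjusted p of 0.0982. Cyp2g1 and Cyp2a4 were called in all 23 fits that left out 1 array.

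Cyp2a5 read 16.99 to 17.60 in Pxr-/- CONT mice (median 17.39, n = 5, since 1 spot carried an outlier flag) and 16.10 to 16.98 in WT CONT mice (median 16.66). The groups did not overlap, by a margin of 16.99 against 16.98. The difference was 0.76 (SE 0.16, limma adjusted p = 0.0314), 0.90 within batch 1 (0.0858) and 0.69 within batch 2 (0.162). The Cyp2a5 call was lost without WT CONT replicate 1 (adjusted p = 0.0834), 4 (0.0510) or 6 (0.0934), and without Pxr-/- CONT replicate 1 (0.0927), 3 (0.0759), 4 (0.0929) or 5 (0.0844). Cyp2a22 read 12.18 to 13.59 in Pxr-/- CONT mice (median 12.95) and 11.64 to 12.24 in WT CONT mice (median 11.90), a difference of 1.01 (SE 0.23, limma adjusted p = 0.0531) that was called in 6 of the 23 fits that left out 1 array. These left out WT PCN replicate 2 (adjusted p = 0.0395), 3 (0.0395) or 4 (0.0406), WT CONT replicate 3 (0.0448), Pxr-/- CONT replicate 6 (0.0162) or Pxr-/- PCN replicate 6 (0.0469).

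None of the other members was called between the genotypes in CONT mice. Cyp2a12 differed by 0.22 (limma adjusted p = 0.537), Cyp2f2 by 0.06 (0.847), the Cyp2e1 probes by 0.03 and -0.05 (0.867 and 0.924), the Cyp2j5 probes by -0.02 and 0.02 (0.925 and 0.968), the Cyp2j6 probes by 0.04 and 0.12 (0.936 and 0.783), and the Cyp2u1 probes by between -0.20 and 0.14 (0.502 to 0.606). For Cyp2e1 probe A_55_P1999301 all WT CONT and Pxr-/- CONT arrays lay between 17.88 and 18.04. Quantile normalization gives equal values to equal ranks, which can narrow the range of so bright a probe. Residuals of these CONT arrays after group and washing batch means ran from -0.09 to 0.07 here. With the processed signal they ran from -0.25 to 0.19.

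Under PCN, no member probe was called between Pxr-/- and WT mice, while 0.636% of all probes tested were called higher and 1.15% lower. At an unadjusted p under 0.05 in limma, 10 of 15 member probes passed, all higher, beside 23.6% of all probes tested in either direction. The median difference of the 15 probes was 0.33, beside 0.01 over all probes tested. Cyp2g1 read 9.31 to 9.71 in Pxr-/- PCN mice (median 9.63) against 8.18 to 9.31 in WT PCN mice (median 8.38), groups that touch at 9.31 after rounding, a difference of 0.90 (SE 0.30, limma adjusted p = 0.0670). Cyp2a4 differed by 0.73 (SE 0.26, limma adjusted p = 0.0819). Within batch 1 the differences were 1.30 for Cyp2g1 (limma adjusted p = 0.00515), 1.22 for Cyp2a4 (0.00352), 1.07 for Cyp2a22 (0.0295) and 0.63 for Cyp2a5 (0.0448), all called, and within batch 2 they were 0.28, 0.00, 0.10 and -0.01. Without WT PCN replicate 2 or 3 Cyp2a4 was called (adjusted p = 0.0442 and 0.0375), and so was Cyp2g1 (0.0435 and 0.0406). Cyp2a22 was called without replicate 3 (0.0411), and Cyp2g1 without Pxr-/- CONT replicate 6 (0.0352). Cyp2u1 probe A_66_P101879 differed by 0.48 (SE 0.11, limma adjusted p = 0.0123), below the fold threshold.

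Over both batches, the means of Cyp2a4, Cyp2a5 and Cyp2a22 were lowest in WT CONT, then WT PCN, Pxr-/- CONT and Pxr-/- PCN, but this order changed within batches. In batch 2 the WT PCN mean was above the Pxr-/- CONT mean for Cyp2a4 (17.29 against 16.90), Cyp2a5 (17.45 against 17.25) and Cyp2a22 (13.17 against 12.72). In batch 1 the Pxr-/- CONT mean was above the Pxr-/- PCN mean for Cyp2a4 (17.41 against 17.30) and Cyp2a5 (17.58 against 17.49). WT PCN was not tested against Pxr-/- CONT. For Cyp2a4 the means over both batches were 15.71 ± 0.48 (SD, n = 6), 16.56 ± 0.68 (n = 5), 17.16 ± 0.34 (n = 6) and 17.29 ± 0.22 (n = 6). The Pxr-/- groups, which are neighbours in this order, did not differ by the test for any of the 3 genes. For Cyp2g1 the means were 7.58 ± 0.29, 8.67 ± 0.54, 9.96 ± 0.86 and 9.56 ± 0.16. The SD of Cyp2g1 was thus 0.86 in Pxr-/- CONT mice, where batch 1 read 10.31 to 10.90 and batch 2 read 8.69 to 10.34.

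Signals of some member pairs also varied together from mouse to mouse. After removal of group and washing batch means, 9 of 45 member pairs correlated at an adjusted permutation p of at most 0.05, all positively. Each gene entered by its brightest probe alone. For Cyp2u1 this was the GT-repeat probe A_55_P1966734, and its other probes were not correlated. Cyp2a4 and Cyp2a5 gave r = 0.97 and rho = 0.97 (22 arrays, permutation p = 1e-05, the smallest that 100000 draws can give, adjusted p = 0.00045), and r was 0.97 without the 2 arrays farthest from the median. These probes share Cyp2a5 transcripts. Cyp2a4 gave r = 0.75 with Cyp2g1 (rho 0.78, permutation p = 0.00033, adjusted p = 0.00742) and r = 0.71 with Cyp2a22 (rho 0.72, permutation p = 0.00138, adjusted p = 0.0124), and without the 2 farthest arrays r was 0.77 and 0.67. The pairs Cyp2a5 with Cyp2a22, Cyp2a5 with Cyp2g1, Cyp2a22 with Cyp2g1, Cyp2a22 with Cyp2e1 and Cyp2a12 with Cyp2g1 passed as well, with r between 0.52 and 0.74. Cyp2a12 and Cyp2j5, on different chromosomes, gave r = 0.65 (rho 0.71, permutation p = 0.00306, adjusted p = 0.0197, 0.53 without the 2 farthest arrays).

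Fewer pairs passed without the WT PCN arrays or when the batches were separated. Without the WT PCN arrays 3 of 45 pairs passed, which were Cyp2a4 with Cyp2a5, Cyp2a4 with Cyp2g1, and Cyp2a12 with Cyp2j5. With the mean of each group in each batch removed, 1 pair passed, Cyp2a4 with Cyp2a5 (r = 0.98, adjusted permutation p = 0.0171), while Cyp2a4 with Cyp2g1 gave r = 0.48 and Cyp2a4 with Cyp2a22 r = 0.40 (adjusted permutation p = 0.282 and 0.351). Within batch 1, r was 0.96 for Cyp2a4 with Cyp2a5, 0.78 with Cyp2g1 and 0.13 with Cyp2a22. Within batch 2 it was 0.99, 0.39 and 0.53. No pair passed within either batch, but arrays were shuffled there only among the at most 3 of a group. Few arrangements exist, and r = 0.99 in batch 2 had a permutation p of 0.019 (adjusted 0.421). That test therefore cannot tell whether pairs vary together within a batch. These 4 alternatives were chosen after seeing the data.

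**Figure D5:**
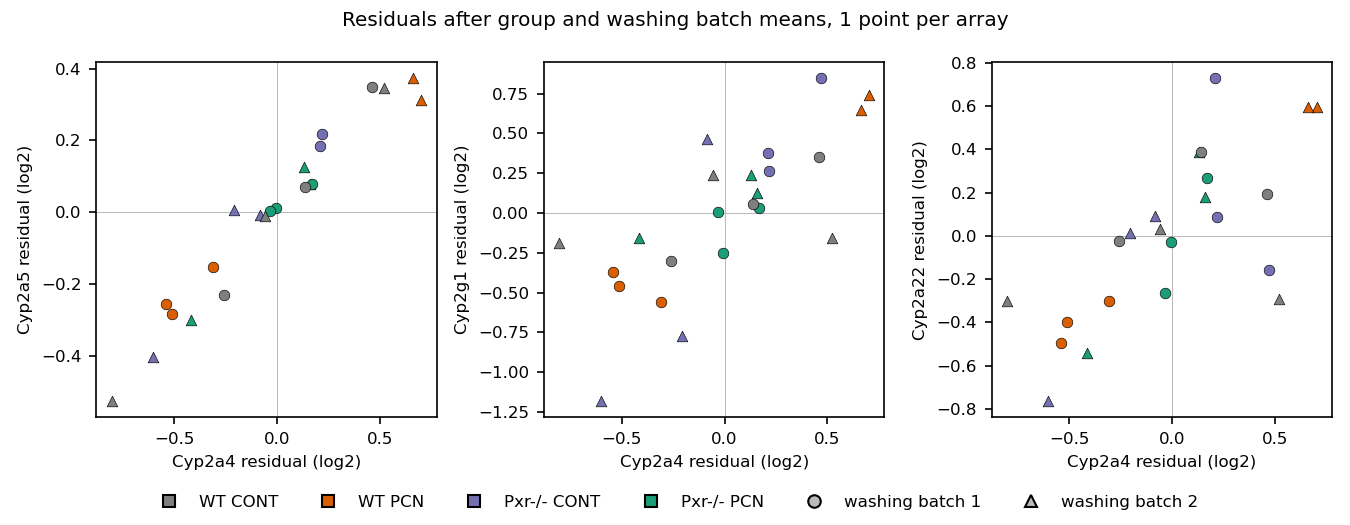
Residual log2 signal of Cyp2a5, Cyp2g1 and Cyp2a22 (vertical axes) against that of Cyp2a4 (horizontal axes), 1 point per array, with colours for the groups, circles for washing batch 1 and triangles for washing batch 2. The Cyp2a5 points lie close to 1 line (r = 0.97), and in the Cyp2g1 and Cyp2a22 panels the 2 WT PCN triangles lie at the upper right and the 3 WT PCN circles at the lower left.

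The stretches before the start sites of Cyp2a4 and Cyp2a5 are nearly the same. Whether this bears on the correlation of the 2 signals was not tested, and the Cyp2a4 probe also lists Cyp2a5 transcripts. Of 251 aligned columns of the 250 bases before each start site, 245 are identical, which is 97.6%. They are printed from RefSeq in build GRCm38.p6, with capitals at the bases that differ or have no partner.
Cyp2a4 (chr7:26306942-26307191, plus strand): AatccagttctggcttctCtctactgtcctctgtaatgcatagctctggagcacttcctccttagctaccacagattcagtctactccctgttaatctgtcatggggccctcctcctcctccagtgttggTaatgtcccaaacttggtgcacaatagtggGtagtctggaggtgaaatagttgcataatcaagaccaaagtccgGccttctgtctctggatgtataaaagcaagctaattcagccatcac
Cyp2a5 (chr7:26835089-26835338, plus strand): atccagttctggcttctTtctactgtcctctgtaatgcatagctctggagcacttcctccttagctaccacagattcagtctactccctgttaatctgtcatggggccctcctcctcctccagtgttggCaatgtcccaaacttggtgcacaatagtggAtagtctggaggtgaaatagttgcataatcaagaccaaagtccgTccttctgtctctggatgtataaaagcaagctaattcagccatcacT

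Cyp2a12 and Cyp2a22 were 82.8% identical over the same stretch, and the other pairs of the 8 members in that table, which does not list Cyp2g1 or Cyp2u1, were between 45.7% and 53.4% identical. The nuclear receptor motifs AGGTCA and AGTTCA were searched on both strands in the 250 bases. AGGTCA was found in Cyp2f2, at bases -221 to -216, and in Cyp2j5, at -197 to -192, and AGTTCA in no member. So 2 of 8 members, or 25%, held either motif, beside 24.2% of 32851 promoters. Of all promoters, 14% held AGGTCA and 11.8% held AGTTCA. Direct repeats of either motif with 3 or 4 bases between, which overlap the single motifs by construction, were in none of the 8, beside 0.0122% and 0.0244% of all promoters. These matches describe the letters of this window alone.

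Genes that work with the members gave the counts that follow, with each gene read from its brightest probe. Over all genes, 3.79% were called higher and 2.39% lower after PCN in WT mice, 1.42% and 0.860% after PCN in Pxr-/- mice, 0.807% and 0.242% for the difference of these effects, 0.228% and 0.0807% for genotype in CONT mice, and 0.731% and 1.36% for genotype in PCN mice. Of the partners in electron transfer and epoxide hydrolysis, 7 of 8 were tested, and after PCN in WT mice 2 were called higher and 1 lower, with a median change of 0.31 beside -0.02 over all genes. Por, the reductase that feeds all these enzymes, rose by 1.04 (SE 0.16, limma adjusted p = 9.01e-05) in WT mice and by 0.62 (SE 0.15, limma adjusted p = 0.0168) in Pxr-/- mice. Ephx1, the microsomal epoxide hydrolase, rose by 0.63 in WT mice (limma adjusted p = 7.18e-04), and Ephx2, the soluble one that opens fatty acid epoxides, changed by -0.62 (5.98e-04). Of the other small Cyp2 genes, 7 of 11 were tested and Cyp2j9 alone was called, at -0.73 after PCN in WT mice (limma adjusted p = 0.00897).

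Of 13 genes coding for regulators of the members, all tested, Cebpa, a hepatocyte transcription factor, was called lower after PCN in WT mice (-0.72, limma adjusted p = 2.01e-04). In Pxr-/- mice 2 were called higher, Nr1i3 (the receptor CAR, 0.97, limma adjusted p = 0.00531) and Ahr, the dioxin receptor (0.92, 0.00376). The Nr1i3 effect differed between the genotypes by -1.27 (limma adjusted p = 0.0213).

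Cyp2e1 is a gene of the pericentral zone and Cyp2f2 of the periportal zone, so lists for both zones were read. Of 12 pericentral genes 0 were called after PCN in WT mice and 2 higher in Pxr-/- mice, Cyp1a2 (0.85, limma adjusted p = 0.0165) and Cyp27a1 (0.67, 0.0302), with medians of -0.14 and 0.39. In Pxr-/- PCN against WT PCN mice all 12 pericentral genes had a difference above 0 (median 0.41) and 4 were called higher, Cyp1a2 (0.84, limma adjusted p = 0.0208), Gulo (0.71, 2.57e-04) and, named after their values were seen, Oat (0.64, 0.0159) and Glul (0.62, 0.0159). For the difference of PCN effects 11 of 12 lay below 0 (median -0.35) and Gulo was called (-0.82, limma adjusted p = 0.00337). Of 12 periportal genes 2 were called higher in WT mice, Aldh1b1 (1.24, limma adjusted p = 0.00171) and Asl (0.59, 0.00546), and 1 lower in Pxr-/- mice, Gls2 (-0.76, 0.0182), with medians of -0.09 and -0.02. In Pxr-/- PCN against WT PCN mice 6 of 12 periportal genes had a difference above 0 (median 0.00). There 1 was called higher, Sds (1.08, limma adjusted p = 0.00966), also named after its values were seen.

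Cyp2a4 is known to be higher in female than in male mouse liver, so genes biased by sex were read too. Of 13 female-biased genes 8 were tested and 4 were called higher after PCN in WT mice, with a median change of 1.04. They were Cyp2b9 (6.43, limma adjusted p = 5.47e-07), Cyp3a41a (1.61, 1.45e-06), Cux2 (1.49, 0.0253) and Cyp3a44 (1.07, 7.46e-06). Of these, Cyp2b9, Cyp3a41a and Cyp3a44 are themselves P450 genes. How far the count reflects P450 induction through PXR rather than sex bias was not tested. Between Pxr-/- and WT CONT mice 6 of the 8 had a difference above 0 (median 0.26) and 0 were called. Between Pxr-/- and WT PCN mice 5 were called lower (median -0.95), and 3 were called higher for the difference of PCN effects (median 1.26). Of 13 male-biased genes 4 were called lower after PCN in WT mice (median -0.30), with Hsd3b5 at -1.52 (limma adjusted p = 0.0174), Slco1a1 at -0.90 (6.97e-04) and Nudt7 at -0.80 (0.0108). None was called between the genotypes in CONT mice.

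Markers of other liver cell types moved with PCN for some lists. Of 8 stellate cell markers 2 were called higher in WT and in Pxr-/- mice, Col1a1 (3.17 and 1.96) and Col3a1 (2.18 and 1.22). The summed log2 level of that list was 14.48 to 15.18 in WT CONT, 14.91 to 15.34 in WT PCN, 14.28 to 14.95 in Pxr-/- CONT and 14.35 to 15.31 in Pxr-/- PCN mice. Of 6 cholangiocyte markers tested Sox9 was called higher after PCN in WT mice (0.76), with summed levels of 10.70 to 12.28, 11.80 to 13.00, 10.99 to 11.81 and 11.29 to 12.57 in the same order. Of 7 blood markers tested Pf4 was called (1.09), with summed levels of 16.34 to 17.78, 16.48 to 17.16, 16.73 to 17.73 and 16.22 to 17.59. No Kupffer cell, endothelial cell, lymphocyte or pancreas marker was called in any comparison. The part of these cells in the changes of the members was not tested, and no marker of these lists was called between the genotypes in CONT mice.

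The authors' deposited log2 values gave other balances of all calls. The share of called probes that were higher was 61.3% in the values used here and 84.4% in the deposited ones for PCN in WT mice, 63.9% and 75.6% for PCN in Pxr-/- mice, 76.7% and 88.8% for the difference of these effects, 77.0% and 47.0% for genotype in CONT mice, and 35.6% and 4.79% for genotype in PCN mice. The median change of all probes was 0.11, 0.03, 0.08, -0.11 and -0.18 in the deposited values and between -0.02 and 0.01 here, and the member changes given above are those of the latter. No called member probe changed its direction under any scaling.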

How the data were processed

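Liver RNA of 23 mice (6 WT CONT, 5 WT PCN, 6 Pxr-/- CONT, 6 Pxr-/- PCN) was labelled from 150 ng and hybridised to 1-colour Agilent arrays on 8 slides, with 12 arrays in washing batch 1 and 11 in batch 2. The deposited scanner files hold spot intensity values, which per the file headers came from Agilent Feature Extraction 10.10.1.1. The authors' deposited table holds log2 values that they had filtered, corrected for washing batch and normalized with CrossNorm, for 32574 probes. Here it served as an alternative.

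Control spots and outlier spots were left out, the median signal was log2 transformed without background subtraction, and spots of a probe were averaged. The probes kept by the filter that follows were then quantile normalized. Of 56605 probes, 32087 were tested, those that in some group exceeded background clearly on over 50% of its arrays. Each array had 29510 to 33321 probes well above background, and the number of arrays limits the precision. Groups were taken from the labels. limma 3.58.1 (R 4.3.3) fitted groups plus washing batch on all 23 arrays with 18 residual degrees of freedom, and p-values were Benjamini-Hochberg adjusted over all probes. Where a gene has several probes, all are given, and the one with the highest mean signal stands for it in gene lists. Pairs of members, each by its brightest probe, were correlated on residuals with 100000 permutations within groups, adjusted over 45 pairs. Where batches were separated, arrays were permuted within each group of each batch. The code was tested on simulated data. The labels name replicates without saying more of their origin, so p-values measure the spread between these samples.

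Every member is named with all its probes, and other genes only where called or needed as a check of the labels. At most 3 are named per list, but more for the zonal and female-biased lists. The members and gene lists were chosen with earlier results of these data known. Alternatives were the processed signal minus its 75th percentile, normexp background, the deposited values, other filters, no batch term, slide or replicate number as a block, each batch alone, only the groups compared, and leaving out each array. Promoters and symbols came from RefSeq tables (GRCm38.p6), where all 10 members were found and 8 had a promoter. Replicate numbers were not used as pairs in the main fit, and whether they pair the samples was not settled.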

Additional observations from a re-analysis of the deposited data

Results flagged for a closer look

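In 60 combinations of probe and group, 6 arrays lay far from the rest of their group by Dixon's test, which chance does in about 1 of 20 combinations. Cyp2a5 read 17.17 on Pxr-/- PCN replicate 6, with the others at 17.47 to 17.60. Cyp2e1 probe A_51_P283456 read 15.99 on WT CONT replicate 2, with the others at 16.50 to 16.73, and 15.95 on WT PCN replicate 4, with the others at 16.47 to 16.56. Cyp2j5 probe A_52_P315766 read 14.12 on WT PCN replicate 2, with the others at 14.20 to 14.23. WT PCN replicate 4 was also low for 2 Cyp2u1 probes, at 16.26 with A_55_P1966734 (others 16.57 to 16.63) and at 6.60 with A_66_P101879 (others 6.81 to 6.89).

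The PCN effect of Cyp2u1 probe A_66_P101879 differed between WT and Pxr-/- mice by -0.68 on the log2 scale (limma adjusted p = 0.0266), with a change of -1.19 in WT and of -0.51 in Pxr-/- mice. It was not called with the deposited values (-0.64, adjusted p = 0.0546), in batch 1 alone (-0.96, 0.0970), in batch 2 alone (-0.37, 0.444) or in 3 of 23 fits that left out 1 array.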

How the results depend on the processing

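No called value changed direction under any alternative run. Among 75 probe changes, uncalled ones changed sign 14 times with the deposited values, 12 times within each batch, 2 times with the processed signal and 1 time with the replicate block. For PCN in WT mice, 2 member probes were called higher, against 4 with the deposited values, 0 in batch 1 alone and 0 to 3 when 1 array was left out, and 2 lower, against 1 in batch 2 alone. For PCN in Pxr-/- mice, leaving out 1 array gave 0 to 1 lower. For the difference of the PCN effects, 0 were higher, against 1 in batch 1 alone and 0 to 1 with 1 array left out, and 1 was lower, against 0 with the deposited values, 0 in each batch alone and 0 to 1 with 1 array left out. For genotype in CONT mice, 3 were higher, against 2 with no filter or in batch 1 alone, 1 in batch 2 alone, 4 with normexp, without the batch term or with the replicate block, and 2 to 4 with 1 array left out. With only the groups compared the count was 3, with Cyp2a22 (limma adjusted p = 0.0334) in place of Cyp2a5 (0.101). For genotype in PCN mice, 0 were higher, against 1 with the processed signal, 1 with only the groups compared, 4 in batch 1 alone and 0 to 3 with 1 array left out. Of 45 pairs 9 correlated positively, against 15 with the deposited values. In alternatives chosen after seeing the data, 3 passed without the WT PCN arrays, 1 with group-by-batch means removed and 0 within each batch. Within a batch 11 or 12 arrays remain, shuffled only among the at most 3 of a group, so that count decides nothing. The causes were not tested. The difference of PCN effects cannot be had from only the groups compared.

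Same-numbered arrays correlated above 0.1 in 11 of 33 pairs (r from -0.25 to 0.49). Pxr-/- CONT with WT CONT gave r = 0.37, 0.49, 0.23 and 0.24 for replicates 1 to 4, and -0.04 and 0.06 for 5 and 6. Differently numbered arrays were not correlated for comparison, so this check cannot tell whether the numbers pair the samples. The replicate block left 71 of 75 results on their side of the threshold and called 4 more, which raised the count for genotype in PCN mice to 3. With the deposited values Cyp2a5 (0.63, limma adjusted p = 0.00654) and Cyp2a22 (0.80, 0.0344) were also called after PCN in WT mice.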

Other observations

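Along chromosome 7 (mm9) the probes of the cluster lie in the order Cyp2a4, Cyp2g1, Cyp2a5, Cyp2a22, Cyp2a12 and Cyp2f2, a view chosen after the values were seen. Counted from the Cyp2a4 probe, Cyp2g1 lies at 506.2 kb, Cyp2a5 at 528.3 kb, Cyp2a22 at 622.9 kb, Cyp2a12 at 721.9 kb and Cyp2f2 at 818.7 kb. In the same order from Cyp2a4, the log2 difference between Pxr-/- and WT CONT mice was 1.45, 2.38, 0.76, 1.01, 0.22 and 0.06. Nlrp9c, a gene 39.7 kb from the Cyp2a4 probe that belongs to no P450 family, differed by -0.07 (limma adjusted p = 0.775). The other tested probe of no member in this stretch, NAP028604-1 at 733.8 kb, differed by 0.38 (limma adjusted p = 0.0601). Probes set aside by the filter were not looked at here.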
